A study of Dreissena polymorpha with 11 samples.

Results

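The zebra mussel Dreissena polymorpha is a freshwater bivalve, and the sequences described here are 37 array targets that stood higher on an array of its early larvae than on every array of its tissues. Their names begin with EY and have the form of GenBank accession numbers. The array carried probes for 3541 sequences, of which 2864 had EY names, and 2701 of these had at least 2 probes and could be selected. The members were selected on 1 larval array, called larvae 2: a sequence was kept there if each of its 2 brightest probes was at least 1 log2 unit, or 2-fold, above the highest of 9 tissue arrays. Each of these probes also had to exceed a signal of 50 there. The 37 members were 1.37% of the 2701 sequences that could be selected. A limit of 100 sequences also belonged to the rule and was not reached. Since larvae 2 against the tissue arrays chose the members, that difference is described here and carries no test.

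The series holds 11 one-colour arrays of untreated mussels. Larvae aged 24 h pf, as the labels write it, gave 2 arrays from 200 ng of RNA each. The 9 other arrays started from 500 ng. They comprised 2 of gill, 2 of digestive gland, 2 of male gonad, 1 of female gonad and 2 of half-body samples. They are called adult arrays here for short, although the labels give no age for them. Half-body 1 is labelled female and half-body 2 male, and what part of the animal the term covers is not stated in the labels. Gill 2 and digestive gland 2 carry both sexes, since the source name says female and the gender field male. Nothing in the labels says that replicates came from separate animals, or how many larvae were pooled, so a p-value here reflects only how much these arrays vary, which may be technical.

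Only larvae 2 gave larval data. Larvae 1 was nearly blank, with 106 probes well above background, against 4357 to 5631 on the 10 other arrays. The arrays lay on 3 slides. Larvae 2 shared its slide with half-body 2, female gonad 1, male gonad 2, gill 2 and digestive gland 2. On another slide were half-body 1, larvae 1, male gonad 1 and digestive gland 1, and gill 1 was alone on the third. Age and RNA input changed together between larvae 2 and the adult arrays and cannot be told apart. In RNA from whole tissues or animals, more cells of a type and more RNA per cell cannot be told apart either.

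A bivalve embryo becomes a swimming trochophore and then a veliger. The trochophore moves with bands of cilia and carries a shell gland that lays down the first shell. The veliger bears the velum, a ciliated lobe used for swimming and feeding, which is lost at settlement. Tissues of settled animals such as gill and gonad share some functions with a larva, among them cilia and cell division, and lack others. No gene name can be given to the members. None of the EY names was found among the 51549 genes of the RefSeq table for this species, so the number matched was 0, and no sequence is printed. Which of these functions the members serve cannot be said.

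Levels are given as log2 signal minus the median log2 signal of 1325 bright EY probes on the same array, so that 0 is the level of a typical bright probe. The gap is larvae 2 minus the highest adult array, in log2 units, and a member's gap or level is the mean of its 2 probes. The mean gap was 1.1 to 2.9 over the 37 members, with a median of 1.72, which is a 3.3-fold difference. Against the median of the 9 adult arrays, larvae 2 was higher by 1.93 to 4.27, with a median of 2.84. Over all 2701 sequences the median mean gap was -0.8, and 23.4% of them had a mean gap above 0. The members are thus the upper end of a distribution that lies mostly below 0.

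**Figure D1:**
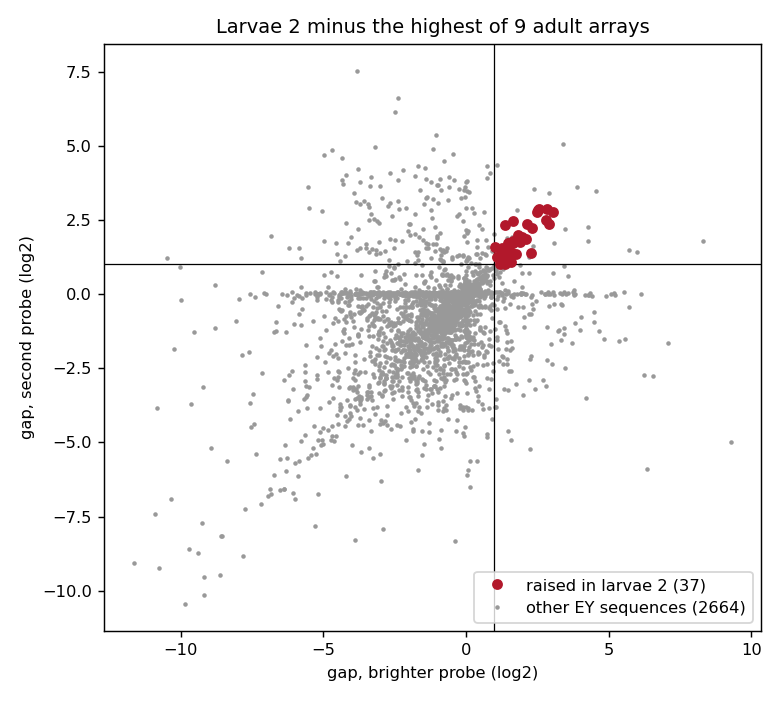
Gap (larvae 2 minus the highest adult array, log2) of the brighter probe against that of the second probe. Points are the 2701 EY sequences with at least 2 probes, with the 37 members marked, and lines mark a gap of 1. The mean of the 2 gaps has its median at -0.8, and in the members it lies between 1.1 and 2.9.

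Of the members, 10 had a mean gap of 2 or more, 13 had one from 1.5 to 2, and 14 had one under 1.5. At the lower edge, EY437023, EY433679 and EY435421 had mean gaps of 1.1, 1.17 and 1.17. Just outside, EY436588 had a mean gap of 1.08 but a smaller gap of 0.85 in one probe. EY434460 and EY436584 followed with mean gaps of 1.07 and 1.0, but smaller gaps of 0.45 and -2.19 in one probe. The 2 probes of EY436584 thus disagreed, and only its mean lay near the edge. By the smaller of the 2 gaps, the closest members were EY434037, EY434137 and EY437023 at 1.0, 1.01 and 1.01. The closest sequences left out were EY435730, EY434783 and EY435145 at 0.97, 0.97 and 0.92. No step in the values separates members from non-members.

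The same rule was turned to each adult group, with every array of that group set against all other arrays except larvae 1. It kept 20 sequences for gill (0.74% of 2701) and 7 for female gonad (0.259%). For male gonad, half-body and digestive gland it kept 0. Larvae 2 and female gonad are single arrays and had to pass once, while the other groups had to pass on both arrays, so these counts are not on equal terms.

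The largest mean gap belonged to EY434666, whose level was -4.57 on larvae 2. It was -8.34 and -7.6 in gill, -10.03 and -8.81 in digestive gland, -9.25 and -7.53 in male gonad, -9.17 in female gonad and -10.36 and -8.83 in half-body. Its mean gap of 2.9, or 7.48-fold, averages a gap of 3.04 to male gonad 2 in one probe and of 2.76 to gill 2 in the other. Neither of its probes was well above background on half-body 1, so the level there is only an upper bound. On all other adult arrays both probes were measured.

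EY434237 had a level of -2.66 on larvae 2. Its adult levels were -5.57 and -6.18 in gill, -5.7 and -6.35 in digestive gland, -6.14 and -5.88 in male gonad, -5.54 in female gonad and -7.45 and -7.16 in half-body. The 7 adult arrays other than half-body lay within a narrow band, and both half-body arrays lay below it. Its 3 further probes all had a gap of at least 1, with a median of 2.75, close to the 2.85 of the selected probes.

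EY434287, EY436806 and EY434289 had nearly the same profile. EY434287 stood at 0.96 on larvae 2, against -2.19 and -1.82 in gill, -2.86 and -2.76 in digestive gland, -2.83 and -1.9 in male gonad, -2.66 in female gonad and -3.65 and -3.18 in half-body. EY436806 stood at 0.51 on larvae 2, against -2.83 and -2.16 in gill, -3.55 and -3.23 in digestive gland, -3.62 and -2.44 in male gonad, -3.28 in female gonad and -4.09 and -3.89 in half-body. EY434289 stood at 0.47 on larvae 2, against -2.68 and -2.27 in gill, -3.14 and -3.18 in digestive gland, -3.22 and -2.17 in male gonad, -3.28 in female gonad and -3.77 and -3.72 in half-body. In each of these members gill 2 and male gonad 2 were the 2 highest adult arrays and the half-body arrays the 2 lowest. After their means were removed, their profiles over 10 arrays differed by at most 0.23 to 0.28 on any array. Over the 9 adult arrays Pearson r between them was 0.964 to 0.977, a description across arrays that share hybridisations. The names EY434287 and EY434289 are 2 numbers apart. Whether the names are reads of the same transcript was not tested, since no sequence was at hand.

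EY435361 stood at 2.21 on larvae 2. Its adult levels were -0.56 and -1.21 in gill, -1.34 and -2.37 in digestive gland, -1.88 and -0.42 in male gonad, -1.78 in female gonad and -1.61 and -1.22 in half-body. Here digestive gland 2 was the lowest array and half-body lay in the middle of the adult range. EY435362, the next number, stood at -0.27 on larvae 2, against -2.91 and -3.02 in gill, -3.68 and -4.17 in digestive gland, -4.29 and -3.08 in male gonad, -4.8 in female gonad and -5.73 and -5.65 in half-body. Unlike EY435361, it was lowest on both half-body arrays.

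EY436759 had the most even adult levels of the 10 largest gaps, with a range of 1.44. It stood at -3.15 on larvae 2, against -5.86 and -5.42 in gill, -5.89 and -5.83 in digestive gland, -5.56 and -6.86 in male gonad, -5.9 in female gonad and -5.68 and -6.11 in half-body. EY434944 stood at -5.24 on larvae 2, against -7.49 and -8.6 in gill, -8.31 and -10.88 in digestive gland, -11.43 and -11.1 in male gonad, -7.84 in female gonad and -8.16 and -9.84 in half-body. Its male gonad arrays were the 2 lowest, and on male gonad 1 neither probe was well above background. EY435060 stood at -6.75 on larvae 2, against -8.98 and -9.0 in gill, -9.63 and -10.71 in digestive gland, -11.62 and -10.24 in male gonad, -9.61 in female gonad and -11.47 and -11.09 in half-body. Both of its probes were not well above background on half-body 1, and one of them also on half-body 2 and male gonad 1.

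**Figure D2:**
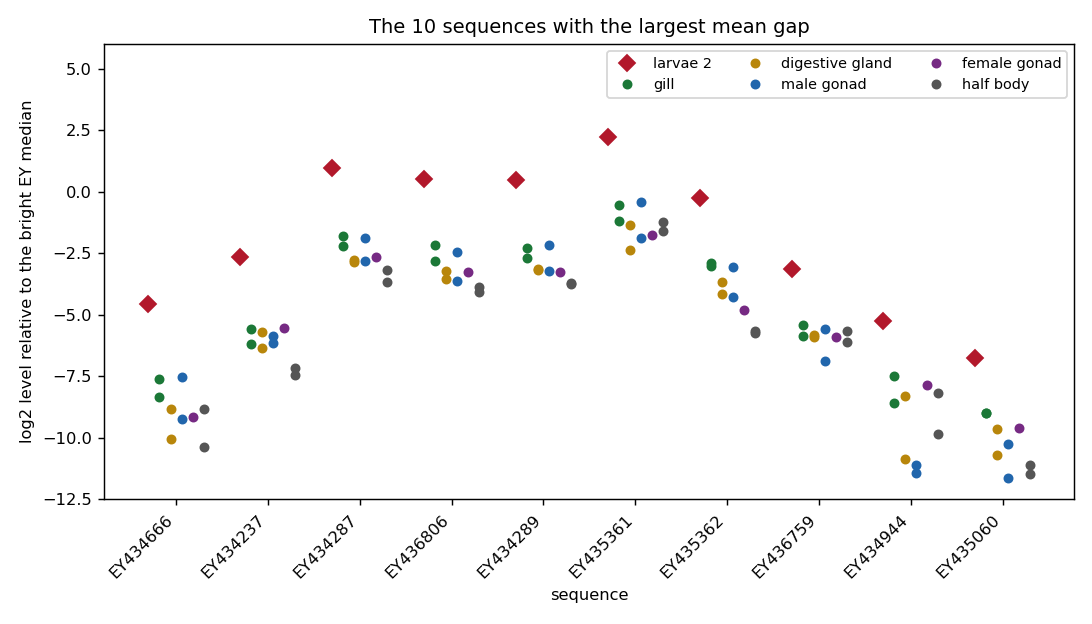
Levels of the 10 members with the largest mean gaps on larvae 2 and the 9 adult arrays (log2 signal minus the array's median over bright EY probes, mean of 2 probes). Larvae 2 is the highest array for each, with gaps of 2.06 to 2.9.

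Members with smaller gaps included the brightest ones. EY436387 stood at 3.46 on larvae 2, against 0.99 and 0.51 in gill, 1.42 and 2.06 in digestive gland, 0.61 and 1.57 in male gonad, -0.04 in female gonad and 0.65 and -0.64 in half-body. EY435844 stood at 3.25 on larvae 2, against 0.81 and 0.45 in gill, 1.36 and 1.92 in digestive gland, 0.57 and 1.44 in male gonad, -0.06 in female gonad and 0.52 and -0.62 in half-body. EY437023 stood at 2.57 on larvae 2, against 0.55 and -0.2 in gill, 0.69 and 1.47 in digestive gland, 0.0 and 0.99 in male gonad, -0.64 in female gonad and -0.03 and -0.83 in half-body. All 3 were highest among the adult arrays on digestive gland 2 and lowest on half-body 2. EY436387 and EY435844 differed by at most 0.11 on any array once their means were removed, with r of 0.998 over the 9 adult arrays. EY434158, with a mean gap of 1.72, had the same highest and lowest adult array and r of 0.982 with EY436387.

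As computed from all values, the adult ranges of EY434137, EY433679 and EY434545 were the 3 widest, at 4.82, 4.64 and 4.13. That order rests in part on values near background. One probe of EY434137 on male gonad 1 and one of EY434545 on half-body 1 were not well above background. With such values raised to the lowest level measured above background on the array, a step chosen after seeing the data, the ranges of EY434137 and EY434545 were 3.84 and 3.08. EY433679 was measured on every array and kept 4.64, and EY435962, also measured throughout, had 3.97. EY434137 stood at -4.89 on larvae 2, against -6.67 and -7.73 in gill, -8.56 and -7.57 in digestive gland, -11.12 and -7.12 in male gonad, -6.3 in female gonad and -8.83 and -8.4 in half-body. EY433679 stood at -3.36 on larvae 2, against -5.81 and -6.54 in gill, -6.98 and -6.45 in digestive gland, -9.18 and -5.6 in male gonad, -4.53 in female gonad and -8.47 and -6.85 in half-body. In both, female gonad was the highest adult array, and male gonad 1 was the lowest, below male gonad 2, as an upper bound in EY434137. Between EY434137 and EY433679, r was 0.941 over the 9 adult arrays. Whether they are reads of the same transcript was not tested. EY434545 stood at -3.59 on larvae 2, against -6.21 and -5.7 in gill, -7.33 and -6.63 in digestive gland, -7.46 and -5.6 in male gonad, -6.52 in female gonad and -9.73 and -8.04 in half-body. Over the 37 members the adult range had a median of 2.53, or 2.32 with values near background raised in this way. Over the 22 members measured on every adult array it was 0.99 to 4.64, with a median of 1.94.

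**Figure D3:**
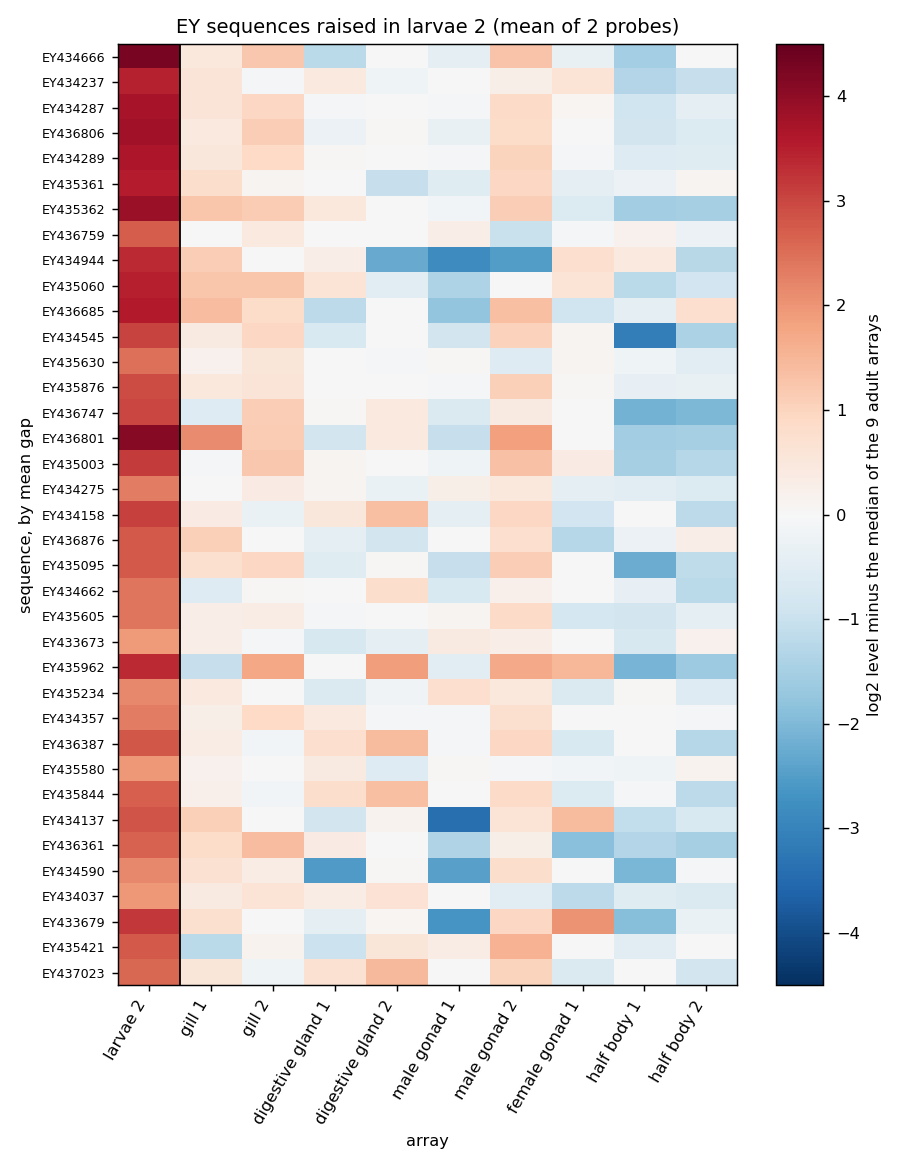
Levels of the 37 members (rows, largest mean gap at the top) on larvae 2 and the 9 adult arrays (columns), as log2 difference from the median of the member's 9 adult arrays. Larvae 2 is 1.93 to 4.27 above that median, and half-body 1 is the lowest adult array for 15 members.

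All 74 selected probes were well above background on larvae 2. Of these, 53 were also well above background on all 9 adult arrays, 14 on 8 of them and 7 on 3 to 7. The share on all 9 was 71.6%, against 33.6% of the 5402 brightest probes of all 2701 sequences. Member probes had to exceed a set signal on larvae 2, and the 5402 did not, so these shares are not on equal terms. With 53 of 74 on all 9, most member probes were measured in adult tissue too. Both probes were measured on all 9 adult arrays for 22 members. On larvae 1, 0 of the 74 probes were well above background, as against 0.603% of the 11280 EY probes. Their median signal there was 1.5, and that of all EY probes was 1.47. Larvae 1 thus gave no second larval measurement of any member.

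The gap depends on the scale between arrays. The median signal of the bright EY probes was 18200 on larvae 2, against 17030 on gill 2 and 23380 to 42820 on the 8 other adult arrays. Without scaling, the median gap over the 74 single member probes was 0.62, with a range of -0.23 to 1.86. The unscaled gap was above 0 in both probes for 34 of the 37 members. Before scaling, EY437023 had signals of 147800 and 78570 on larvae 2, below 152700 and 91780 on digestive gland 2. EY436387 had 191200 and 209100, against 178800 and 178900 there. EY435844 had 170000 and 175800, against 163700 and 160400. Within the slide that held larvae 2, where 5 adult arrays remain, the mean gap was 1.1 to 2.9 with a median of 1.82.

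The 2 probes of a member mostly gave like values. Their gaps differed by a median of 0.21 and by at most 0.98, in EY436747, and 32 members had gaps within 0.5. Across the 9 adult arrays, r between the 2 probes had a median of 0.94 and was above 0.9 in 21 members. It was 0.07 in EY436747. Probe names fall into 2 sets by their endings, and 18 members had 1 probe from each set, with a median r of 0.97, while 19 had both from 1 set, with a median r of 0.89. How far the probes of a sequence overlap was not tested.

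The members had 84 further probes, which the rule did not use for the gap. Of these, 42 (50%) had a gap of 1 or more and 67 had one above 0. Among probes of other EY sequences, 6.65% had a gap of 1 or more. The further probes share RNA, array and target with the selected ones, so they are no replicate. Of the 47 that were well above background on larvae 2, 39 (83%) had a gap of 1 or more, against 13.2% of such probes of other EY sequences. Of the 37 that were not, 3 did. That split uses larvae 2, the array on which the members were chosen to be high, so the 83% is not independent of the selection. In 13 members every further probe had a gap of 1 or more, and in 13 members none had. EY434237, EY435003 and EY434275 are examples of the first kind with 3 further probes each. In EY434289 the single further probe was not well above background on larvae 2 and had a gap of -3.45.

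**Figure D4:**
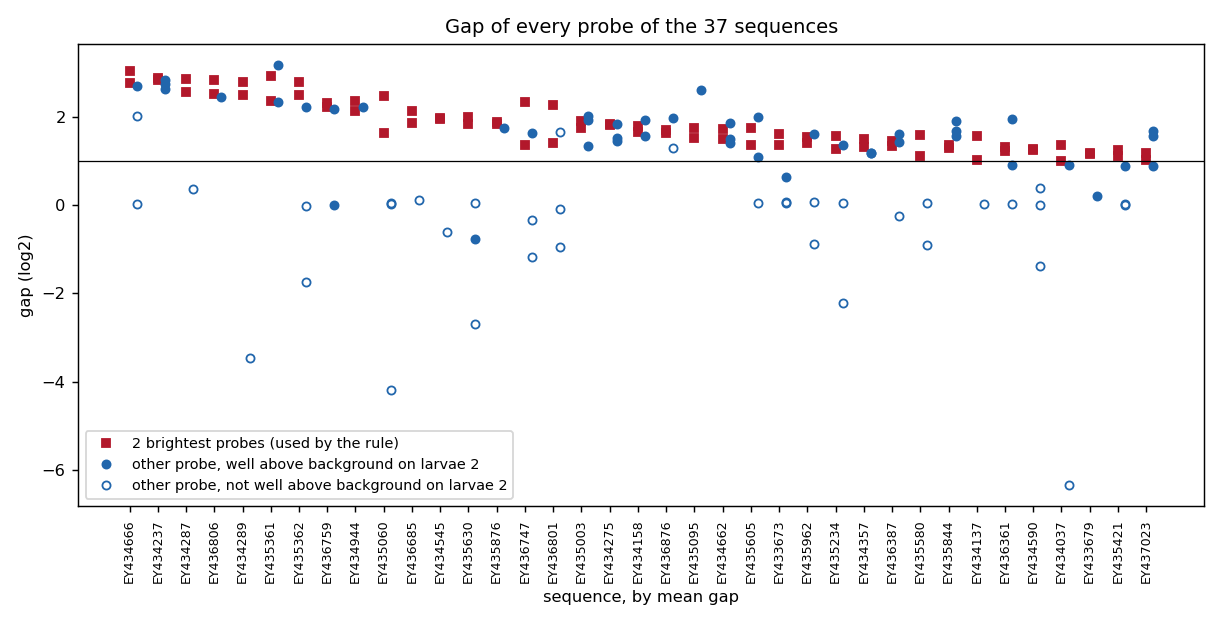
Gap (larvae 2 minus the highest adult array, log2) of every probe of the members, by sequence. The 74 selected probes are shown beside the 84 further ones. The further probes are split into 47 well above background on larvae 2 and 37 that were not. Of these 47, 39 lie at 1 or more, and of these 37, 3 do.

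Among adult tissues, the members were high and low in different places. The rule used the highest adult array of each sequence, so the shares and adult comparisons below are not independent of the selection. A sequence raised in an adult group was less likely to pass. The highest adult array was a gill array for 13 members (35.1%), against 56.2% of all 2701 sequences. It was male gonad for 13 (35.1%), against 10.8%, and digestive gland for 8 (21.6%), against 7.29%. It was female gonad for 3 (8.11%), against 4.63%, and half-body for 0 (0.0%), against 21.1%. By single array, male gonad 2 was highest for 11 members and male gonad 1 for 2. Digestive gland 2 was highest for 7 and digestive gland 1 for 1, and gill 2 for 7 and gill 1 for 6. Male gonad 2, digestive gland 2, gill 2 and female gonad 1 lay on the slide of larvae 2. The part of the slide in these shares was not tested. The lowest adult array was half-body for 21 members (56.8%), against 13.4% of all 2701. It was male gonad for 7 (18.9%), against 31.2%, and digestive gland for 4 (10.8%), against 42.2%. It was female gonad for 4 (10.8%), against 4.74%, and gill for 1 (2.7%), against 8.37%.

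Most of the 2701 sequences were not measured on every adult array, so the shares were also taken over those with both probes measured on all 9. There, half-body was highest for 0 of 22 members, against 12.5% of 706 other sequences, and lowest for 15 (68.2%), against 23.7%. Gill was highest for 7 of these members (31.8%), against 45.9%. Digestive gland was highest for 7 (31.8%), against 14.3%, and male gonad for 6 (27.3%), against 18%. These 7 include EY436387, EY435844, EY437023 and EY434158, with r of 0.975 to 0.998 between them over the 9 adult arrays. Whether such names are reads of the same transcript was not tested, so a transcript may be counted more than once.

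Both half-body arrays lay below the 7 other adult arrays in 13 members (35.1%), against a background of 2.89% of the 2701 sequences. This background was not restricted to sequences measured on all 9 adult arrays, and most of the 2701 were not. The 2 shares are thus not on equal terms. The 13 members included EY434237, EY434287, EY436806, EY434289 and EY435362. Of these, EY434287, EY436806 and EY434289 had nearly the same profile and are counted separately. Other pairs among the 13 were also alike over the 9 adult arrays. For example, r was 0.978 between EY434545 and EY435095 and 0.965 between EY434289 and EY435876. Whether these are reads of the same transcript was not tested. Larvae 2 exceeded the half-body mean by a median of 3.62, the digestive gland mean by 2.95, the female gonad array by 2.88, the male gonad mean by 2.83 and the gill mean by 2.46. The SD between the 2 arrays of a group had a median over the members of 0.39 in gill, 0.4 in digestive gland, 0.81 in male gonad and 0.31 in half-body.

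The half-body difference did not pass the test for any member. The limma fit on the 9 adult arrays covered 5376 probes, among them 73 of the 74 selected ones. One probe of EY436801 was left out because it was not well above background on all arrays of any group. For half-body against the dissected tissues, 0 of 73 member probes were called at an adjusted p below 0.05, with 0.465% of all probes called. At an unadjusted p below 0.05 there were 14, all lower in half-body (19.2%), against 4.78% of all probes that were lower at that level. The median difference was -0.71 over the member probes, -0.07 over all probes tested and -0.18 over the EY probes. The difference was below 0 for 65 of 73 member probes (89.0%), against 54.2% of all probes.

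The smallest adjusted p in this comparison was 0.22 by limma, in EY435362 and EY435095. In EY435362 the difference was -1.85 ± 0.42 (SE) in one probe and -1.84 ± 0.42 in the other. EY434237 had -1.49 ± 0.34 and -1.4 ± 0.38, with limma adjusted p of 0.233 and 0.282. EY435003 had -1.78 ± 0.54 and -1.78 ± 0.56, with limma adjusted p of 0.326 and 0.338. These 3 members had low half-body values in both probes, and none passed the threshold. In simulated data for this comparison, the fit recovered 31% of probes changed by 2 log2 units and 55% of those changed by 4. In the comparisons below, it recovered 7% and 44% for gill, 15% and 56% for digestive gland, and 28% and 69% for the gonads. The simulation drew each array independently, while real deviations of digestive gland and male gonad arrays correlated at 0.73. Changes as small as the median member difference of -0.71 were not simulated.

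For gill against digestive gland and both gonads, 0 of 73 member probes were called by limma, with 4.28% of all probes called. At an unadjusted p below 0.05 there were 3, all higher in gill (4.11%), against 11.1% of all probes that were higher at that level. The median difference was 0.41 over the member probes, 0.13 over all probes and 0.41 over the EY probes. EY436361 came closest, with a difference of 1.91 ± 0.45 (SE) and a limma adjusted p of 0.0904 in one probe, and 1.81 ± 0.62 and 0.23 in the other. Its levels were -7.98 and -7.43 in gill, against -8.44 and -8.82 in digestive gland, -10.16 and -8.57 in male gonad and -10.69 in female gonad. The gill arrays were the 2 highest, with digestive gland 1 next.

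For digestive gland against gill and both gonads, 0 of 73 member probes were called by limma, with 0.428% of all probes called. At an unadjusted p below 0.05 there were 0 among the members, against 5.13% of all probes. The median difference was -0.27 over the member probes, -0.11 over all probes and -0.19 over the EY probes. EY437023 and EY435844, whose highest adult array was digestive gland 2, had differences of 1.11 ± 0.47 and 1.18 ± 0.5 (SE) in one probe each, with a limma adjusted p of 0.992 for both.

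For the gonads against gill and digestive gland, 0 of 73 member probes were called by limma, with 0.353% of all probes called. At an unadjusted p below 0.05 there were 4, all lower in the gonads (5.48%), against 5.28% of all probes that were lower at that level. They belonged to EY436361, at -1.88 ± 0.42 and -1.85 ± 0.58 (SE), and to EY434037, at -1.29 ± 0.41 and -1.15 ± 0.36. The smallest limma adjusted p was 0.222, in EY436361. The median difference was -0.2 over the member probes, about that of the EY probes tested (-0.17). Over the member probes it was 0.03 without male gonad 1.

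**Figure D5:**
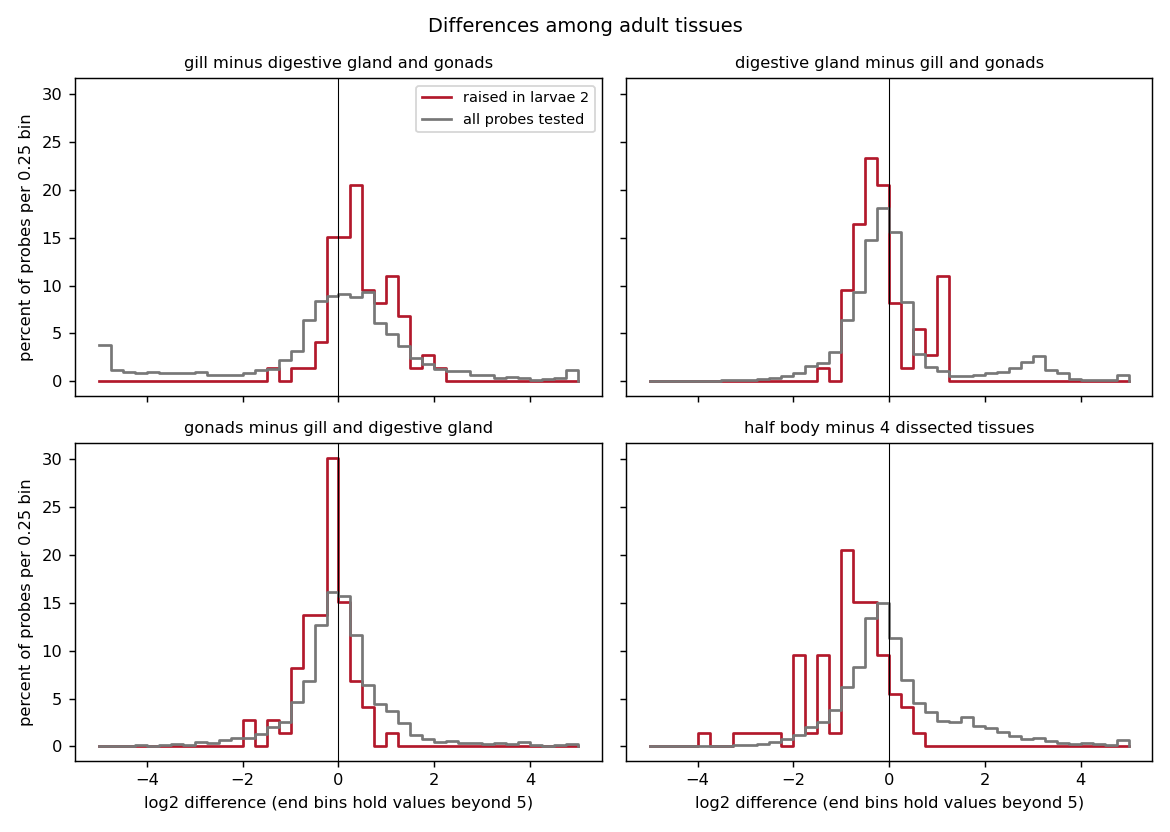
Log2 differences of the members' 73 tested probes and of all 5376 probes in the 4 comparisons among adult arrays. The member median is 0.41 for gill, -0.27 for digestive gland, -0.2 for the gonads and -0.71 for half-body, where 65 of 73 lie below 0.

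The male gonad arrays differed from each other in the members. Male gonad 1 was lower than male gonad 2 in 31 of the 37, with a median difference of -1.05. Among sequences with both probes measured on all 9 adult arrays, the median was -0.95 over 22 members and -0.1 over 706 others. Male gonad 2 was on the slide of larvae 2 and male gonad 1 was not, and the part of the slide in this difference was not tested. Half-body 1 and 2 lay on the same 2 slides, with different sex labels, and differed by a median of -0.04 over the 22 members. Digestive gland 1 and 2 also lay on these slides, with a median of array 1 minus array 2 of -0.07. Over 5353 probes, the deviations of the digestive gland and male gonad arrays correlated at 0.73. In gill the median was -0.16 over these members, and gill 1 was alone on its slide. The part of sex in these differences was not tested either.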

How the data were processed

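Per the file headers, the deposited scanner files hold spot intensity from Agilent Feature Extraction 10.5.1.1, background-subtracted and detrended within each array but not scaled between arrays. The authors also deposited a table of log2 values whose scaling and centring are not given in the sources used here, and it served only as an alternative. Its column medians were 2.97 to 3.24 on 9 arrays, 3.52 on larvae 1 and 4.23 on gill 1. Its r with the scanner values was 0.279 on larvae 1 and 0.579 on gill 1, against 0.984 to 0.991 elsewhere. Its unused per-sample columns numbered 0.

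Control spots and spots marked as outliers were left out, and spots of a probe were averaged as log2. Each array was centred on its median over 1325 EY probes above 1000 on the 10 arrays other than larvae 1. The 2 probes of a sequence were those with the highest mean log2 signal. Adult groups were compared with limma 3.58.1 in R 4.3.3 (group means, empirical Bayes, Benjamini-Hochberg over all probes tested), on probes that every array of some adult group showed well above background. The larval arrays stayed out of that fit. The fit was tested on simulated data. Selection used Python 3.11.15. The normexp alternative used the spots' median signal, as the files hold no mean signal.

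The members and comparisons were chosen with earlier results of these data known. Sequences were named if they had the 10 largest or 3 lowest mean gaps, the 3 highest larvae 2 signals, the 3 widest adult ranges, or the 3 largest gaps among those measured on all adult arrays. Others named were chosen after their values were seen. Replicate numbers were checked over 5353 probes. Deviations of same-numbered arrays correlated at 0.01 for gill with digestive gland and 0.01 for gill with male gonad. For digestive gland with male gonad the correlation was 0.73, so deviations were shared there. Array 1 of both tissues lay on a slide together, as did array 2 of both. The main fit took neither replicate number nor slide as a block, and each was run as an alternative. The number of arrays limits the precision. Alternatives covered scaling, background correction, filters, slide, and each array left out.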

Additional observations from a re-analysis of the deposited data

How the results depend on the processing

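The 37 members became 9 with a gap of 2 or more, 19 with 3 brightest probes required, 12 with the deposited value table (7 of them among the 37) and 9 without scaling between arrays, an alternative chosen after seeing the data. Other scalings and background corrections gave 28 to 39. Leaving out 1 adult array gave 38 to 46, the highest without gill 2, and kept all 37, since fewer arrays then have to be exceeded. No member probe was called in the digestive gland, gonad or half-body comparisons under any alternative run, and in the gill comparison 1 was called at an adjusted p below 0.1. With each array left out in turn, member calls stayed at 0 in the 4 comparisons. With the replicate number as a block, which could be run without half-body because both its labels carry number 1, member calls were 0 and all calls were 100 for gill, 0 for digestive gland and 0 for the gonads. Over all alternatives, calls among all probes were 0 to 376 for gill, 0 to 56 for digestive gland, 0 to 60 for the gonads and 0 to 42 for half-body. The median member difference for half-body stayed between -1.06 and -0.58. For the gonads it was -0.47 to 0.03, above 0 only without male gonad 1. The cause of these shifts was not tested. Probes near background limit the dim members: 21 of the 74 probes were not well above background on at least 1 adult array.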
